A study of Labroides dimidiatus with 23 samples.

Results

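The 12 libraries described here map histone H3 acetylated at lysine 27 (H3K27ac) in forebrain of adult cleaner wrasse, Labroides dimidiatus, and carry the number 120 in their titles. They comprise 6 libraries of familiar fish and 6 of control fish, out of 23 libraries in the whole series, and were chosen by title alone. Familiar fish had already met a client when their social preference was tested, whereas controls chose between clients that were both new to them. The unit of the number 120 is not given, and the other libraries of the series carry the number 30. All libraries share the tissue and the antibody against H3K27ac. The labels do not state the sex or origin of the fish. Since nothing says that each library is a separate fish, p-values here measure only how libraries vary, and that variation may be technical.

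Cleaner wrasse feed on parasites of larger reef fish, their clients, and are known for treating individual clients differently. H3K27ac is placed by acetyltransferases of the CBP family and removed by histone deacetylases, and it marks promoters and enhancers in use. In rodents, histone acetylation in the hippocampus is known to change with learning. In CUT&RUN a nuclease guided by the antibody releases the marked chromatin, and places with many released fragments are called as peaks. Each library came as a list of broad peaks, with position, length and the peak caller's own fold enrichment, p and q for each peak. The lists hold no read counts, so depth is unknown. Fold enrichment and q are each list's own and were not compared between groups, so only position and length of peaks are compared here. In a tissue sample, fewer cells with a mark and less of the mark per cell cannot be told apart. Coordinates are those of the deposited lists, with a genome build not given in the sources used here. Genes and sequences were not analysed here. The forebrain label was therefore not checked against marker genes.

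The comparison addresses whether having met a client leaves a difference in called H3K27ac peaks at the label 120. In number and length, the peak lists of both groups overlapped. Lists of familiar fish held from 34714 to 46162 peaks with a median of 44844, and those of controls from 42228 to 48264 with a median of 46689.5. The means were 42683 ± 4632 (SD, n = 6) in familiar and 45880 ± 2541 (n = 6) in control libraries, a difference of -3196 peaks (two-sided exact permutation test, p = 0.175, adjusted p = 0.701 over 4 measures). Peaks covered 67.3 to 95.2 Mb in familiar libraries, with a median of 88.7 Mb, and 78.7 to 92.0 Mb in controls, with a median of 90.6 Mb. The mean difference of -4.40 Mb was within the spread between libraries (exact permutation p = 0.42, adjusted p = 0.84). Familiar replicate 1 had the largest covered length of the 12 libraries, and familiar replicates 3 and 4 had the smallest.

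Median peak width was 1039 ± 35.4 bp in familiar and 1039 ± 33.0 bp in control libraries (exact permutation p = 0.991, adjusted p = 0.991). Peaks of 10 kb or longer are broad domains, of which familiar libraries held 687 to 1260 and controls 788 to 1221. Such domains covered 16.9 ± 3.90 Mb per familiar library and 16.8 ± 3.35 Mb per control library (exact permutation p = 0.965, adjusted p = 0.991). Peaks under 1 kb made up 48.4% ± 1.45 of familiar and 48.4% ± 1.28 of control lists. The make-up of a list by peak length was thus close in both groups, with wide spreads for the amount of broad domains.

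Differences in peak number and covered length were not the same in all libraries. Titles open with a library number, and these fall into 3 ranges: 17 to 29, 43 to 59 and 69 to 80. Whether a range is a batch is not stated. The difference in covered length, familiar minus control, was 4.74 Mb in the range 17 to 29, -18.9 Mb in the range 43 to 59 and -1.36 Mb in the range 69 to 80. Familiar replicates 3 and 4, with 34714 and 39584 peaks covering 67.3 and 69.9 Mb, are the familiar libraries of the middle range. Without both, the familiar mean was 91.0 ± 3.22 Mb (n = 4), 3.06 Mb above the controls (exact permutation p = 0.352), and the mean peak number was 45451 ± 1088, a difference of -429 (exact permutation p = 0.762). Both lists have the fewest peaks and the least covered length of all, so leaving them out could only raise the familiar means. The choice was made after the data were seen, and the controls of the middle range stayed in. Leaving out familiar replicate 3 alone gave differences of -1602 peaks (exact permutation p = 0.353) and -1.16 Mb (p = 0.818). With the range as a block, the differences were -4094 peaks (exact permutation p = 0.0556 over 180 splits) and -6.57 Mb (p = 0.178).

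**Figure D1:**
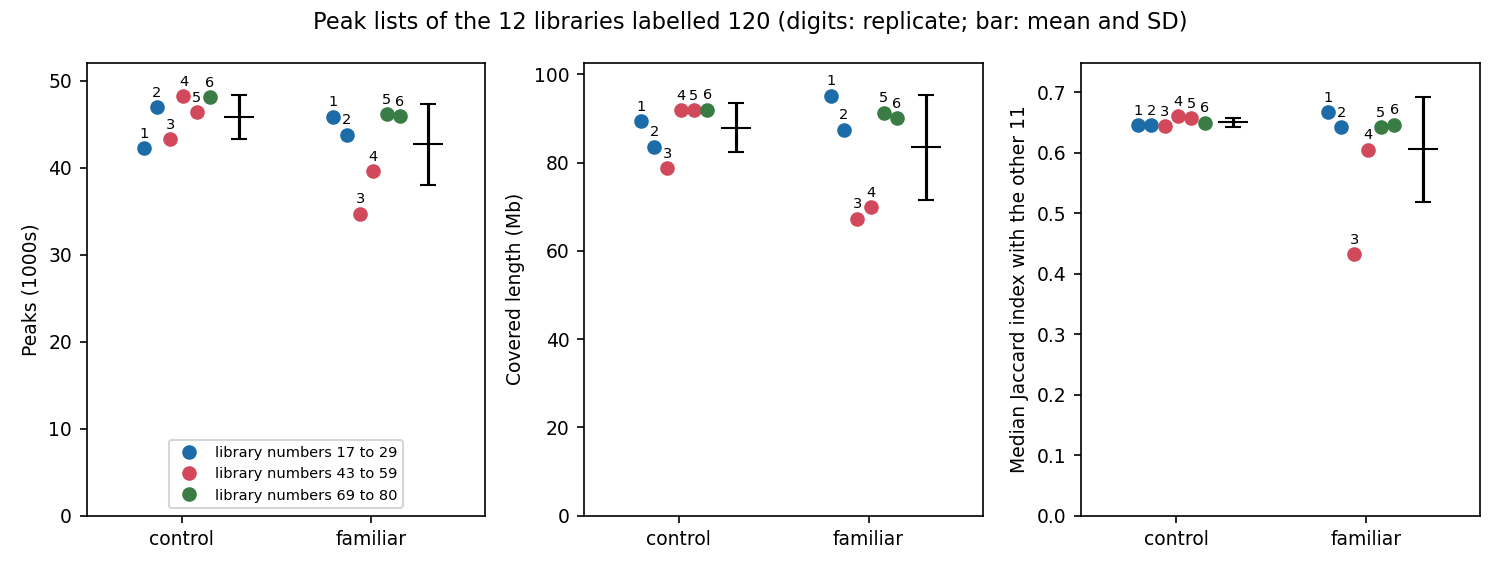
Number of peaks (axis in units of 1000), covered length in Mb and median Jaccard index with the other 11 libraries, for each library labelled 120 (points, coloured by range of library numbers, with the replicate as a digit), with the mean and SD of each group (n = 6). Familiar replicates 3 and 4 lie lowest in all 3 panels, and the other libraries of both groups overlap.

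Libraries of the same group shared no more of their covered bases than libraries of different groups. The Jaccard index, the length shared by a pair of lists divided by the length covered in either, was on average 0.609 within groups and 0.609 between them. The difference was -0.000688 (one-sided exact permutation test, p = 0.519). Pairs of controls ranged from 0.628 to 0.675 with a median of 0.651, and pairs of a familiar and a control library from 0.421 to 0.681 with a median of 0.644. Pairs of familiar libraries ranged from 0.417 to 0.674, with a median of 0.607, and from 0.599 without replicate 3. Replicate 3 had a highest index of 0.442 with any other of the 12 libraries. The closest pair of all, familiar replicate 1 with control replicate 4, crossed the groups at 0.681.

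Bases acetylated in every library of a group were fewer among familiar fish, and the gap was smaller without replicate 3. Peaks of all 6 familiar libraries shared 36.6 Mb, which is 25.3% of the 144.9 Mb covered in any of them. The 6 controls shared 52.1 Mb, or 38.5% of 135.4 Mb. The 5 familiar libraries other than replicate 3 shared 50.9 Mb, or 38.8% of 131.4 Mb. Sets of 5 controls, each leaving out a different library, shared 53.5 to 55.7 Mb, or 41.0 to 42.3% of the bases any of them covered. All 12 libraries shared 34.03 Mb.

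Most acetylated regions were found in similar numbers of libraries of both groups. Regions are stretches covered in 3 or more of the 22 libraries of both labels that had enough peaks. There are 52979 of them, and a region counts as present in a library when peaks covered at least 50% of it. Of these, 5499 (10.4%) were present in 12 of 12 libraries, with a median length of 3018 bp. The numbers of familiar and control libraries with a region differed by at most 1 for 38770 regions (73.2%). Rare regions cannot differ by more, and the count includes 704 present in 0 of 12 libraries. It also includes 1727 present in 1 control only and 3133 present in 1 familiar library only. More familiar than control libraries held 12981 regions (24.5%), and fewer held 23418 (44.2%). The largest single class off the diagonal was that of 4176 regions present in all 6 controls and 5 familiar libraries. The missing library was familiar replicate 3 for 3106 of them and replicate 4 for 698. The reverse class, with 6 familiar and 5 control libraries, held 502.

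**Figure D2:**
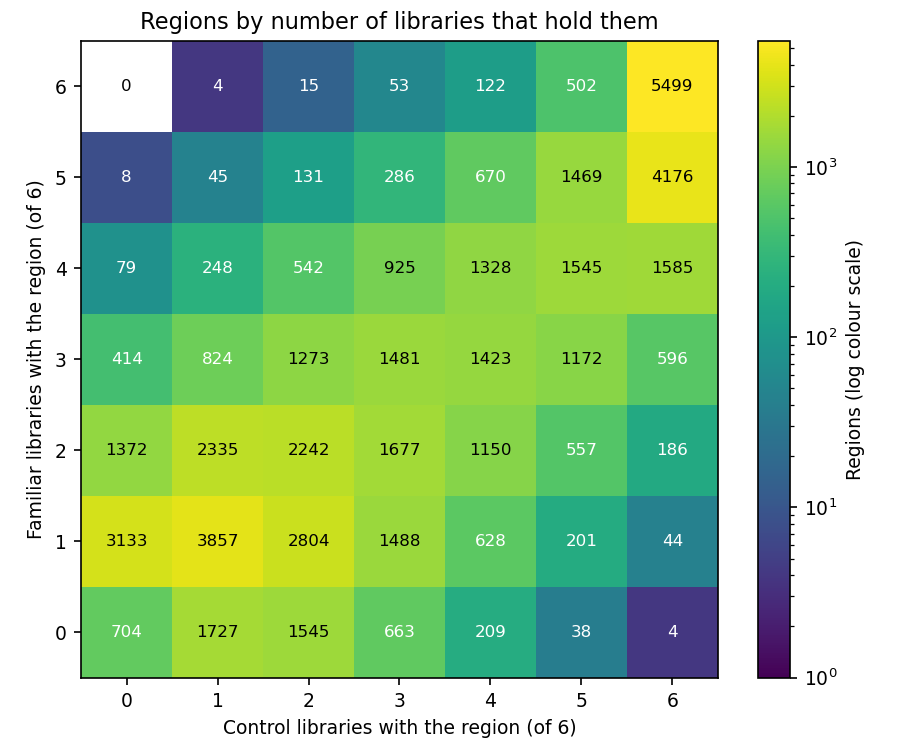
Number of regions (digits, and colour on a log scale) by how many of 6 control libraries (horizontal) and of 6 familiar libraries (vertical) hold the region at 50% cover or more. Counts are highest near the diagonal, with 5499 regions in all 12 libraries, and fall to 0 and 4 at the corners where a region reaches 50% cover in every library of 1 group and in none of the other.

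Few regions divided the groups. At least 5 of 6 familiar and at most 1 of 6 control libraries held 57 regions (0.108% of all), and the opposite held for 287 (0.542%). Without familiar replicates 3 and 4, 115 regions (0.217%) were in 4 of 4 familiar and at most 1 of 6 control libraries, and 66 (0.125%) were in 0 of 4 and at least 5 of 6. These sets are not of the same strictness as the first ones, but their order is the reverse. Both libraries left out have the least covered length of all and were chosen after the data were seen. No region was present in all 6 familiar libraries and 0 controls. The reverse was found at 4 regions (0.00755%), named here after their values had been seen. They lie on chromosome 16 from 16083677 to 16085379, chromosome 3 from 21219878 to 21220673, chromosome 23 from 19033889 to 19034909 and chromosome 7 from 28661811 to 28664698. Familiar libraries covered at most 49.2% of any of them, and controls at least 52.6%. Peaks still touched them in 2, 2, 5 and 5 of the 6 familiar libraries, in that order, so absence here means cover under 50%. Cover of the groups could not overlap at these 4, since the rule that chose them puts every control at 50% or more and every familiar library below. Over all tested regions, no overlap in this direction held for 0.104%. Mean differences were -56.9, -59.3, -49.6 and -38.2 points (limma adjusted p = 0.915 for the first and 0.968 for the others).

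The part of each region lying under peaks, in percent, was tested with limma over 52924 regions, and 0 (0%) passed an adjusted p of 0.05. The lowest adjusted p was 0.798. Without adjustment, 372 regions were higher in familiar fish (0.703%) at p under 0.05, and 1930 were lower (3.65%). Together they are fewer than the 1 in 20 that this threshold takes in by chance on average. The directions were uneven and regions share their libraries, so the total does not place either direction at the level of chance. Over all tested regions the median difference was -4.13 points of cover. By presence, Fisher's exact test called 0 regions, with 12 higher and 86 lower at the unadjusted level. Its smallest possible p of 0.00216 would have to be reached by 2292 regions for any to pass adjustment, and 4 reached it. The excess of lower over higher regions was smaller when covered length entered as a covariate, with 831 higher and 1195 lower. Covered length is summed from the same peaks, so this covariate takes out much of any difference shared by all regions. The median difference with it was -0.758 points. The excess was larger with the range of library numbers as a block, at 400 and 2315. It was also larger without familiar replicate 1, at 304 and 2447, and without familiar replicate 6, at 423 and 2590. Leaving out control replicate 3 gave 295 and 2248, control replicate 1 gave 367 and 2149, and familiar replicate 5 gave 373 and 2134. Without familiar replicate 2 it was nearly unchanged, at 385 and 1948. It was smaller without familiar replicate 4, at 542 and 1299, and without control replicate 2, 4, 5 or 6. Array weights gave 839 and 1684, and leaving out familiar replicate 3 gave 727 and 1217. Each of these settings tested the same 52924 regions. Without replicates 3 and 4 the order turned, with 1294 of these regions higher and 681 lower and a median difference of 1.04 points. Both libraries had the least covered length of all and were chosen after the data were seen. Leaving them out of the familiar group alone therefore shifts cover towards higher in familiar fish. What sets those libraries apart was not tested. Without those 2 libraries limma called 2 of 52924 regions, both higher in familiar fish and both among those described next.

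The 10 regions with the smallest p among those higher in familiar fish, numbered F1 to F10 in that order, were mostly short and had few or no peaks in controls. F1, on chromosome 5 from 21304503 to 21305665, was covered from 26.1 to 100% in familiar libraries, with a median of 57.5%, and by 0% in each of the 6 controls. It was touched by a peak in 6 of 6 familiar libraries, and its groups did not overlap, as held for 0.00945% of tested regions in this direction. The difference was 57.2 ± 10.8 points (SE, limma adjusted p = 0.798). It was 24.99 points with only peaks of a -log10 q at or above 5, and 6.02 points in the wider region formed by joining across gaps up to 1000 bp. F2, also on chromosome 5 from 24737592 to 24738338, ranged from 0 to 100% with a median of 80.5% in familiar fish and from 0 to 32.3% with a median of 0% in controls. The 0 belonged to familiar replicate 3, and control replicate 4 held the peak that reached 32.3%. Its difference was 65.3 ± 13.9 points (limma adjusted p = 0.915), and it passed at 79.4 points without familiar replicate 3 (limma adjusted p = 0.0154) and at 83.4 points without replicates 3 and 4 (0.0128). Leaving out replicate 3, at 0%, could only widen the difference.

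F3 and F4 both lie on chromosome 12, and no control library had a peak in either. F3, from 6480083 to 6480706, had a median cover of 80.8% in familiar fish with replicate 3 at 0, and F4, from 17104963 to 17105547, had 67.8% with replicate 4 at 0. The differences were 68.7 ± 16.0 and 63.7 ± 16.1 points (SE; limma adjusted p = 0.915 and 0.968). F5, on chromosome 6 from 6000848 to 6001561, was likewise free of peaks in these controls and ranged from 0 to 100% in familiar libraries, with a median of 60.5%. In these 3 regions 5 of 6 familiar libraries had a peak. At the label 30, peaks touched F3, F4 and F5 in 2, 3 and 2 of 5 control libraries and in 1, 2 and 1 of 5 familiar ones.

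F6 is the longest of the 10, with 4119 bp on chromosome 6 from 1088987 to 1093105. Familiar libraries covered 26.4 to 61.5% of it with a median of 55.2%, and controls 0 to 37.8% with a median of 4.07%. Control replicate 4 was the highest control and exceeded familiar replicates 1 and 6, so the groups overlapped. At the label 30 the same region was covered by 59.2% ± 21.6 (SD, n = 5) in familiar and 81.4% ± 12.5 (n = 5) in control libraries, so that the order there was the opposite. F7, on chromosome 5 from 22088081 to 22088804, had medians of 64.4% and 0%.

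F8, on chromosome 13 from 5585314 to 5585621, divided the familiar group. Its 308 bp were covered by 93.5 to 100% in familiar replicates 1, 2, 5 and 6 and by 0% in replicates 3 and 4 and in each control. It passed without replicates 3 and 4, at 96.8 points (limma adjusted p = 0.0101), against 64.6 ± 17.5 points (SE, adjusted p = 0.968) with all libraries. Leaving out 2 familiar libraries at 0% could only widen the difference. F9, on chromosome 17 from 29435702 to 29436251, was covered by 0 to 88.2% in familiar fish with a median of 52.3%, and by 0% in controls. F10, on chromosome 14 from 21822120 to 21823775, had medians of 47.5% and 0%.

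Over F1 to F10, familiar replicates 1, 2, 5 and 6 touched 10 of 10 regions each, replicate 3 touched 5 and replicate 4 touched 6. Control replicate 4 touched 3 of the 10, control replicates 1, 5 and 6 touched 1 each, and the other controls touched 0. The direction was the same in each of the 3 ranges of library numbers for 9 of the 10 regions. Choosing regions by small p in these same libraries favours such agreement, so it is no independent check. F8 was the exception, with no peak in the middle range. The peaks were weak within their lists. Ranked by the authors' deposited -log10 q within each library's own list, the strongest peak in these regions stood at a median percentile of 22.8, against 39.1 for all tested regions and 88.4 for regions present in all 12 libraries. The choice of regions favours this order, since those present in all 12 must have a peak in each. They are also longer, with a median of 3018 bp against 719 bp for F1 to F10.

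The 10 regions with the smallest p among those lower in familiar fish, numbered C1 to C10, included regions with no peak in any familiar library. C1, on chromosome 18 from 4326856 to 4328130, was covered by 47.2 to 98.6% in controls with a median of 84.5%. Of the familiar libraries, 4 were at 0% and the highest was replicate 3 at 41.7%, so the groups did not overlap, as held for 0.104% of tested regions in this direction. The difference was -68.6 ± 13.5 points (SE, limma adjusted p = 0.798). C2, on chromosome 9 from 17943225 to 17944148, was at 0% in 6 of 6 familiar libraries and in control replicate 1, and from 63.5 to 81.2% in the other 5 controls. Its difference of -62.0 ± 12.2 points (adjusted p = 0.798) became -74.4 points and passed without that control (limma adjusted p = 0.00746). Leaving out a control at 0% could only widen the difference.

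C3, on chromosome 17 from 8214852 to 8216139, was also at 0% in every familiar library, and had a median of 66.8% in controls with replicate 5 at 0%. Without that replicate it passed, at -73.6 points (limma adjusted p = 0.0174), against -61.4 ± 12.5 points (SE, adjusted p = 0.851) with all libraries. As for C2, the control left out was at 0%, so the difference could only widen. C5, on chromosome 14 from 20523095 to 20523885, had peaks in 6 of 6 controls, covering 38.2 to 100% with a median of 59.1%, and in 0 of 6 familiar libraries. Its difference was -65.4 ± 14.6 points (limma adjusted p = 0.915). C6, on chromosome 10 from 21190495 to 21190835, had a median of 82.3% in controls, with replicate 1 at 0%, and 0% in each familiar library. C9, on chromosome 3 from 6006848 to 6007159, was covered by 90.7% or more in 4 controls and by 0% in control replicates 2 and 4 and in all familiar libraries. No other library in the region test had a peak there, so C9 met the rule of 3 libraries only through these controls. Its bounds were drawn from their peaks, which favours high cover in them.

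The other regions of this set were covered in part in some familiar fish. C4, on chromosome 13 from 1023448 to 1024694, had a peak in each control and in a single familiar library, replicate 5 at 61.3%. C7, on chromosome 6 from 14296681 to 14298095, had medians of 34.1% in familiar fish and 84.1% in controls, and familiar replicate 6 at 70.6% exceeded the lowest control at 68.6%. C8, on chromosome 16 from 16083677, is among the 4 regions present in all controls and no familiar library, with at most 46.7% in familiar fish and at least 55.7% in controls. C10, on chromosome 14 from 6035523 to 6038091, was touched in all 12 libraries. It was covered by 34.1 to 77.9% in familiar fish with a median of 53.0% and by 81.4 to 100% in controls with a median of 91.8%, so the groups did not overlap, and the difference was -40.6 ± 9.497 points (SE; adjusted p = 0.915, limma). With only peaks of a -log10 q at or above 5 the sign of C10 turned, to 12.6 points.

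In C1 to C10, familiar replicates 1, 3 and 4 had peaks in 2 regions each, replicates 2 and 6 in 3 each and replicate 5 in 4. Controls touched 8 to 10 of the 10. Each of the 10 had the same direction in all 3 ranges of library numbers, which the choice by small p in these same libraries again favours. The strongest peaks stood at a median percentile of 25.2 in their lists. These regions lay a median of 26200 bp from the nearest region present in all 12 libraries, and F1 to F10 a median of 29292 bp, against 36327 bp for all tested regions not themselves in all 12.

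**Figure D3:**
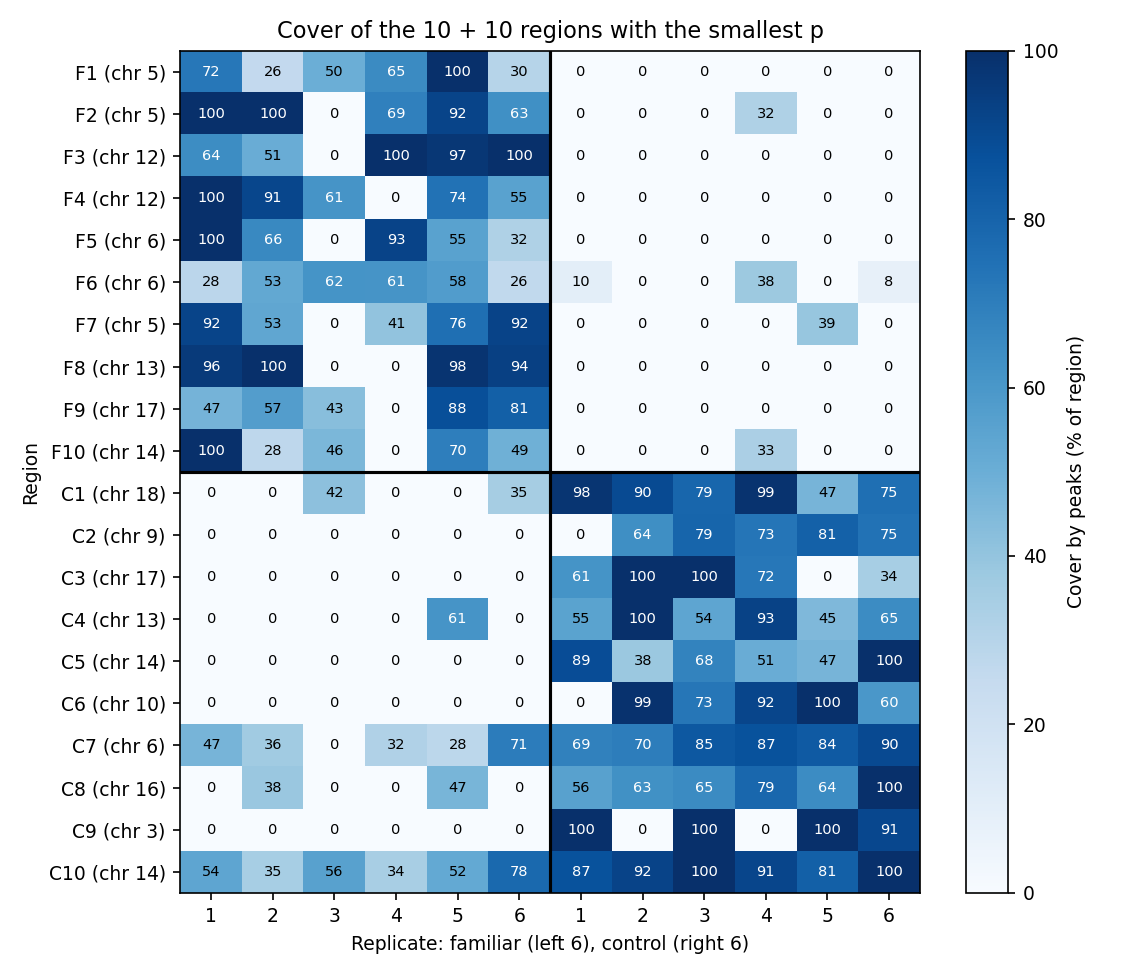
Percent of each region covered by peaks (digits and colour) in 6 familiar (left) and 6 control libraries (right), for the regions F1 to F10 (top) and C1 to C10 (bottom), labelled with their chromosome. Familiar replicates 3 and 4 are at 0% in 5 and 4 of the upper regions, and familiar replicates 1, 3 and 4 in 8 each of the lower ones.

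Groups that did not overlap were found at 5 regions higher (0.00945% of 52924 tested) and 55 lower (0.104%) in familiar fish. Whether either number exceeds what groups without a difference would give was not tested. Beside F1, the 4 higher ones, named after their values had been seen, had peaks in all 12 libraries and smaller differences. The region at 14875062 to 14878417 of chromosome 6 was covered by 86.4% ± 6.35 (SD, n = 6) in familiar and 63.3% ± 6.51 in control fish, which differ by 23.1 ± 7.69 points (SE; adjusted p = 0.968, limma). The differences were 15.4 points at 25555787 to 25556640 of chromosome 9, 13.3 points at 17409100 to 17410868 of chromosome 14 and 11.1 points at 11984311 to 11993843 of chromosome 2. The last is 9533 bp long and was covered by at least 79.5% in each familiar and at most 77.5% in each control library. Besides C5, 3 further regions, also named after their values had been seen, had a peak in 6 of 6 controls and 0 of 6 familiar libraries. They start at 29860195 on chromosome 12, at 9233014 on chromosome 14 and at 23596806 on chromosome 10, and end at 29861589, 9233977 and 23597766. Their control means were 56.95, 47.2 and 54.0%. At the label 30, familiar libraries covered the same 3 regions by 68.2, 61.4 and 65.8% on average and controls by 53.7, 49.1 and 28.2% (n = 5 in each group). That is the opposite direction in each, and it was not tested. Over the 55 lower regions without overlap, differences at 30 had either sign, from -34.2 to 37.6 points.

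The longest regions that divided the groups by presence differed in mean cover from -29.1 to 21.1 points, and 0 of the 6 passed the test. Those in at least 5 familiar and at most 1 control library were led by FL1 (10584 bp, chromosome 18, 4003277 to 4013860), FL2 (10297 bp, chromosome 7, 14103812 to 14114108) and FL3 (9057 bp, chromosome 22, 15112768 to 15121824). FL2 was covered by 46.9 to 94.8% in familiar and 29.7 to 67.4% in control libraries, with medians of 59.9 and 37.8% and a mean 21.1 ± 10.3 points higher (SE; adjusted p = 0.968, limma). FL1 and FL3 differed by 6.08 and 4.15 points, and each was reversed in the middle range of library numbers, where familiar replicate 3 covered 3.47% of FL1 and 0% of FL3. In the opposite direction stood CL1 (11313 bp, chromosome 6, 18848501 to 18859813), CL2 (11049 bp, chromosome 21, 14236508 to 14247556) and CL3 (10753 bp, chromosome 12, 2266132 to 2276884). CL3 was covered by 27.8 to 57.7% in familiar and 53.9 to 87.1% in control libraries, with means that differ by -29.1 ± 9.59 points (SE; adjusted p = 0.968, limma). CL1 and CL2 differed by -14.1 and -15.3 points. CL2 was reversed in the range 69 to 80, at 9.80 points, and was at -7.70 points without control replicate 4. CL1 was at -0.57 points with the stricter q. With regions drawn from bases in at least 6 of the 12 libraries, CL3 was at -6.01 and FL2 at 8.81 points, and FL1 and FL3 turned to -11.4 and -12.1 points.

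Peaks at places acetylated in every library were compared by length. At the 18037 regions touched in all 12 libraries, the summed length of the touching peaks had a median of 1405 to 2264 bp in familiar and 1889 to 2202 bp in control libraries. Familiar replicates 3 and 4, with 1405 and 1664 bp, were below each control, and familiar replicate 1, with 2264 bp, was above each. A single peak touched the place in 73.3 to 79.6% of these regions in familiar and 74.2 to 79.1% in control libraries, so these ranges overlapped. On the log2 scale, limma called 0 of 18037 regions (0%), with a lowest adjusted p of 0.944. At an unadjusted p under 0.05, 108 regions had longer peaks in familiar fish (0.599%) and 541 shorter ones (3%), and the median difference was -0.10 (log2). Without familiar replicates 3 and 4, left out after the data were seen, these counts were 533 longer and 277 shorter, and the median was 0.03. These libraries had the lowest medians of summed length, so leaving them out shifts the familiar group towards longer peaks. In that setting 2 of 18037 regions, both on chromosome 21 and longer in familiar fish, passed with a limma adjusted p of 0.0126. They lie from 7912618 to 7915681 and from 16596047 to 16598275, with log2 differences of 1.47 and 1.10.

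Of the 5 places with the smallest p for shorter peaks in familiar fish, the first lay on chromosome 10 from 11256658 to 11259805. Summed length there was 278 to 990 bp in familiar libraries with a median of 740 bp, and 1521 to 3373 bp in controls with a median of 2173.5 bp. The groups did not overlap, as held for 0.144% of these regions in this direction, and the log2 difference was -1.76 ± 0.30 (SE, limma adjusted p = 0.944). On chromosome 1 from 12992294 to 12994582 the medians were 441 and 1286 bp, also without overlap, and the log2 difference was -1.32 ± 0.26. On chromosome 11 from 33324815 to 33327249 the medians were 1215.5 and 2370 bp, with familiar replicate 1 at 2164 bp just above the lowest control at 2132 bp. The fourth is C10, where peaks had medians of 1360.5 and 2469 bp. On chromosome 10 from 29396088 to 29399394 the medians were 1610.5 and 2518 bp.

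For longer peaks in familiar fish, the place with the smallest p was at 13310507 to 13313914 of chromosome 18. Peaks there had 1471 to 3855 bp in familiar libraries with a median of 2696.5 bp, and 687 to 1605 bp in controls with a median of 1042 bp. Familiar replicate 5 fell below the highest controls, and the log2 difference was 1.21 ± 0.27 (SE, limma adjusted p = 0.944). The second, on chromosome 6 from 14875062, is also among the places of higher cover. Its peaks measured 2625 to 3268 bp in familiar and 1884 to 2509 bp in control libraries, a log2 difference of 0.48 ± 0.11, and its groups did not overlap, as held for 0.0222% of these regions in this direction. The other 3 had log2 differences of 0.64 (chromosome 11, 17045671 to 17046808), 0.68 (chromosome 9, 1204070 to 1205525) and 1.44 (chromosome 15, 13458507 to 13462669).

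Mean cover was lower in familiar fish in each length class of regions, by less than the SD of the familiar libraries. From 1 to 10 kb the difference was larger than the SD of the controls. In regions of at least 10 kb, mean cover was 74.5% ± 9.99 (SD, n = 6) in familiar and 78.1% ± 3.89 in control libraries, and in those under 1 kb it was 25.8% ± 7.65 and 29.04% ± 5.01. The differences were -3.27 points under 1 kb, -5.38 from 1 to 3 kb, -4.35 from 3 to 10 kb and -3.55 at 10 kb or longer (two-sided exact permutation tests, adjusted p = 0.476 for each). In the range 17 to 29 of library numbers familiar fish were higher in all 4 classes, by 2.49 to 3.66 points. In the range 43 to 59 the differences were from -18.3 to -12.3 points, and in the range 69 to 80 from -2.63 to -0.252 points. Without familiar replicates 3 and 4 the differences were 1.40, 1.12, 2.16 and 2.38 points in the order of the classes. Both libraries had the lowest mean cover in each class, so leaving them out could only raise the differences.

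**Figure D4:**
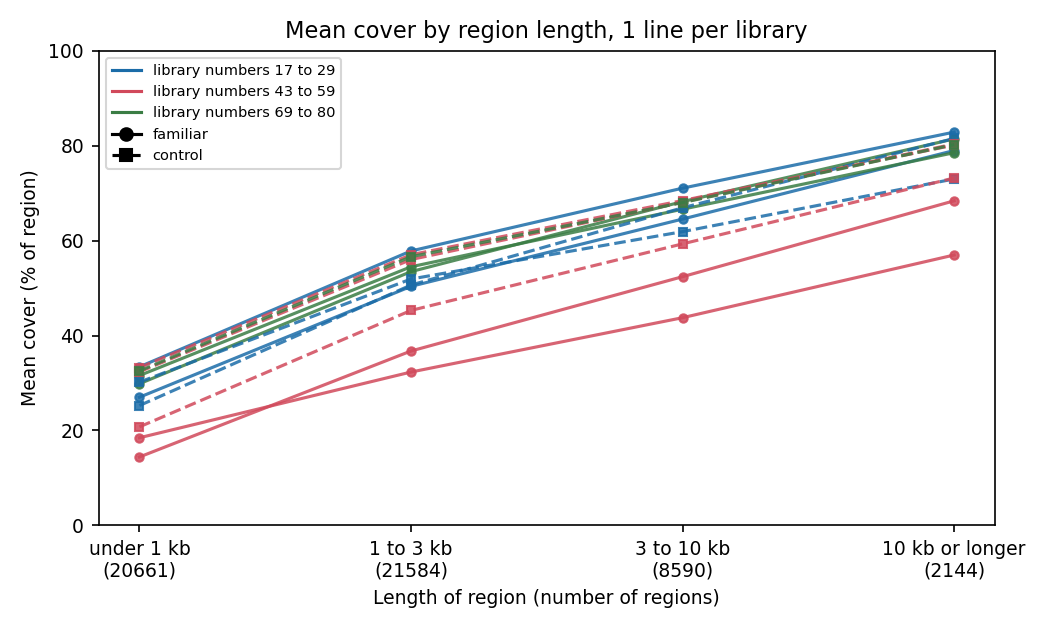
Mean percent of a region covered by peaks against the length class of the region (number of regions in brackets), 1 line per library, coloured by range of library numbers (solid with circles, familiar; dashed with squares, control). The lines of familiar replicates 3 and 4 lie lowest in each class, familiar replicate 1 lies highest, and familiar replicates 2, 5 and 6 lie within the span of the controls.

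Regions with an unadjusted p under 0.05 were spread over the genome. On the 24 chromosomes, lower regions in familiar fish made up from 2.51% of those tested on chromosome 24 to 5.27% on chromosome 6. Higher regions made up from 0.372% on chromosome 1 to 1.13% on chromosome 6. The median difference in cover was negative on each of the 24, from -5.80 points on chromosome 6 to -2.72 on chromosome 24.

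Libraries labelled 30 offer the same comparison in libraries that played no part in choosing the 26 regions F1 to F10, C1 to C10, FL1 to FL3 and CL1 to CL3, except that they entered the definition of regions and the estimate of spread. Of the 26, 11 had the same direction at 30 as at 120, 14 the opposite one and 1 no difference. The lowest exact permutation p at 30 was 0.0556, for C7 with 54.4% ± 17.6 in familiar (SD, n = 5) and 77.7% ± 10.97 in control libraries (n = 5), and the lowest adjusted p over the 26 regions was 1. The design at 30 allows no exact p below 0.00794. F1 was covered by 13.7% ± 21.0 in familiar and 0% ± 0 in control libraries at 30, with peaks in 2 of 5 and 0 of 5. C1 was at 57.02% ± 22.3 and 58.7% ± 31.9, with peaks in 5 of 5 libraries of each group. C5 was at 24.3% ± 33.3 and 23.1% ± 33.3, with peaks in 2 of 5 libraries of each group. Some familiar libraries thus had peaks in both regions at 30. C9 had no peak in any library at 30 that entered the test. Over all 52924 tested regions, the differences at 120 and 30 had a Pearson correlation of -0.0295 across regions, which are not independent and share their libraries within each label. The test of whether the difference itself changed between the labels called 0 of the 52924 regions (limma, lowest adjusted p = 0.9999). At an unadjusted p under 0.05 there were 2194, fewer than the 1 in 20 that this threshold takes in by chance on average. As regions share their libraries, that count alone is no measure of chance.

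**Figure D5:**
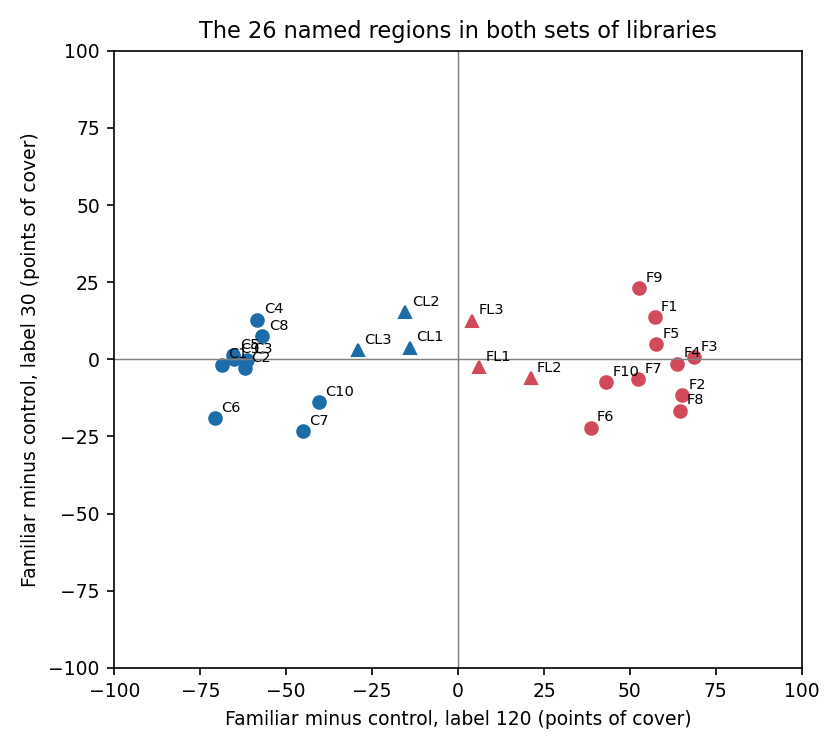
Difference in cover between familiar and control libraries at label 30 (vertical) against label 120 (horizontal), in percentage points, for the 26 named regions (red, higher in familiar fish at 120; blue, lower; triangles, the 3 longest in each direction). Differences at 120 reach from -70.6 to 68.7 points by choice, while at 30 the points lie between -23.3 and 23.1 on both sides of 0.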

How the data were processed

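H3K27ac was mapped by CUT&RUN in 23 forebrain libraries, of which 12 are labelled 120. MACS2, Bowtie2, Trimmomatic 0.39, FastQC, Picard and SAMtools are named in the submitters' processing notes, with genome build, MACS2 settings and use of input not given in the sources used here. The authors deposited a list of peaks, with start and end, for each library. The score the authors deposited is, in 99.99% of rows, 10 times the -log10 q without decimals. The deposited fold enrichment is a ratio over background and was not compared between lists. Deposited values of -log10 p and of -log10 q come from the peak caller. No -log10 q was below 1, and q served to rank and to filter peaks inside a list. Read depth is unknown, so no counting interval is given.

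Groups come from titles, and replicates are numbered in accession order. The mitochondrial genome was left out. Libraries under 0.5 times the median of 45859 peaks were left out of the region test, which removed 1 library labelled 30. Regions joined stretches found in 3 or more of the 22 kept libraries across gaps up to 200 bp, with a minimum of 200 bp. F1, F2, F8, F10, C3, C6 and C9 could meet this rule only through the group where they are high, which favours a difference there. Percent cover was fitted in limma 3.58.1 (R 4.3.3) with 4 groups in the model, for mean cover between 5 and 95%, which left out 55 regions. Peak length was fitted as log2 of bp in the 12 libraries. P-values were adjusted by Benjamini-Hochberg with a threshold of 0.05. Percent cover is bounded, which limma does not describe. Both fits were tried on real values shuffled over libraries region by region, with shifts added to some regions. Such shuffling removes differences between whole libraries, so it cannot show how the fits behave where these exist, as here. Named regions are the 10 smallest p per direction, the 3 longest per direction divided by presence, and for length the 5 smallest p per direction. The rule also asked for regions present in 6 of 6 libraries of a group and untouched in the other, of which there were 0. Members, lists and tests were chosen with earlier results of these data known. A planned test at gene starts was not made, since no annotation was used. Other steps used pandas 2.3.3, scipy 1.17.1 and numpy 2.4.6 in Python 3.11.15.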

Additional observations from a re-analysis of the deposited data

Results flagged for a closer look

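Of 92 sets of 6 values examined for a library far from the others, 14 held one, where chance alone marks about 1 in 20, and percent cover often sits at 0, which makes such gaps common. Familiar replicate 3 had a median Jaccard index of 0.42 with its own group, where the next library had 0.603. Familiar replicate 3 was also apart at F2, with 0% where the others had 63.1% or more, and at FL1, with 3.47% where the next had 51.1%. Control replicate 4 was far above the other controls at F2 (32.3%), F6 (37.8%), F10 (33.3%), FL3 (84.0%) and CL2 (99.0%). Control replicate 5 was the highest at F7 with 39.2%, where the other controls had 0%. Control replicate 1 was at 0% in C2 and control replicate 3 at 39.0% in CL1, each far below the rest. Familiar replicate 5 was far above its group at C4 (61.3%) and CL2 (78.4%). Familiar replicate 1 had peaks of 2164 bp on chromosome 11 from 33324815, where the next familiar library had 1290 bp.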

How the results depend on the processing

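Read depth is unknown, and covered length differs between libraries, which limits what a difference in cover can show. The count of 0 regions called in cover stayed at 0 with peaks limited to -log10 q at or above 5, the 12 libraries alone, all 23 libraries, covered length in the model, the range of library numbers as a block with and without that length, array weights, no filter on mean cover and 3 other definitions of regions. Both Fisher tests gave 0, which says nothing here, since too few regions reached their smallest possible p for any to pass. Leaving out single libraries gave 0 to 1, and leaving out familiar replicates 3 and 4 together, chosen after the data were seen, gave 2. In each region so called, a library left out had been at 0% where most of its group had peaks. For peak length at common places the count was 0 in each alternative and 0 to 0 over single libraries left out, but 2 without replicates 3 and 4. With the range as a block, 96 of 18037 regions were longer and 1082 shorter at an unadjusted p under 0.05. In the libraries labelled 30 the count of named regions that passed stayed at 0.

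Some differences between groups, none of them past its threshold, turned sign. Covered length differed by 3.06 Mb without replicates 3 and 4, and by -6.74 to -1.16 Mb over single libraries left out. Replicates 3 and 4 had the least covered length, so leaving them out could only raise that difference. Median width differed by 41.6 bp with the stricter q and by 15.0 bp without replicates 3 and 4, with -10.3 to 12.1 bp over single libraries. Length in broad domains differed by -0.483 Mb with the range as a block and by -0.789 to 1.34 Mb over single libraries. The Jaccard difference ranged from -0.0109 to 0.0122 over single libraries. Mean cover under 1 kb differed by 0.0484 points with the stricter q, and without replicates 3 and 4 the 4 length classes differed by 1.40, 1.12, 2.16 and 2.38 points. Among named regions, C10 turned to 12.6 points with the stricter q. FL1 turned to -5.24 points in that setting and to -11.4 with regions from bases in at least 6 of the 12 libraries, where FL3 turned to -12.1, and FL3 was at -2.65 without familiar replicate 5. With regions joined over gaps of up to 1000 bp, F1 was at 6.02, F9 at 32.6, C3 at -37.1 and C8 at -22.6 points. These regions lie 490 to 906 bp from the nearest other region, so this setting joined each of them to a neighbour. With the stricter q, F1 was at 24.99, C7 at -28.9 and CL3 at -17.3 points. The cause of the other shifts was not tested. Over the alternatives, 583 values of named regions kept direction and side of the threshold, 5 passed it and 5 reversed. The stricter q left 20177 regions to test, and of F1 to F10 and C1 to C10 only F1, C7 and C10 had a value. With regions from bases in at least 6 of the 12 libraries, only F2, F6, C1, C4, C7, C8 and C10 of these had one. Regions without a value are missing from those counts. No paired analysis was possible because replicates are numbered in accession order and nothing pairs them.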
